A study of Mus musculus with 3 samples.

Results

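The genes described here are the chemokines and chemokine receptors of the mouse, read in 2 kinds of spleen and in normal liver. They were taken by symbol: every Ccl, Cxcl, Cx3cl and Xcl ligand, every Ccr, Cxcr, Cx3cr and Xcr receptor and every atypical receptor (Ackr) with a probe, except Cxcl13, Ccl19 and Ccl21a, which the rule left out. No measured value entered the rule. It gave 55 genes, 32 ligands and 23 receptors, of the 20658 genes that had both a probe and a symbol. Of 64 RefSeq symbols that the rule covers, 9 had no matched probe: Ccl16-ps, Ccl19-ps1, Ccl19-ps2, Ccl19-ps3, Ccl21b, Ccl21c, Ccl21d, Ccl27b and Cxcl11.

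The study asked whether the spleen can be turned into tissue that works like liver. The first group, SiO2 spleen, is spleen from female mice given SiO2 and is the control. The second, SiO2-3TF-3C spleen, is spleen from female mice given SiO2 and 3TF-3C, a treatment whose parts the labels do not spell out; both kinds of spleen were collected on day 82. The third is untreated normal liver of female mice, included as a positive control. Both spleen groups therefore carry the SiO2 treatment, and no untreated spleen was analysed here. Strain, age and vehicle are not given in the sources used here. According to the design text, 5 spleen samples were pooled per group; whether the liver sample was pooled too is not clear from it. Each group was then read on 1 array, so no spread between mice can be given and no difference was tested.

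Chemokines are small secreted proteins that set up gradients along which white blood cells move. Their receptors couple to inhibitory G proteins, and arrestins then switch the receptor off and carry it into the cell. Atypical receptors bind chemokines without G-protein signalling and clear or transport them. In the spleen, Cxcr5 and Ccr7 sort B cells and T cells into follicles and T-cell zones, whereas in the liver Cxcl16, Cxcl1 and Ccl2 are known for drawing natural killer T cells, neutrophils and monocytes.

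Levels are log2 processed intensities minus the 75th percentile of the array, so 0 is the 75th percentile and a difference of 1 is 2-fold. Where 3 levels are given in a row, they are those of SiO2 spleen, SiO2-3TF-3C spleen and liver, in that order. A level can be compared between arrays for the same gene, not between genes, because probes differ in brightness. The error given after a difference is technical and covers the scanner software's error model for the spots alone. It was 0.20 to 0.22 for most bright probes and larger for dim ones. Differences of at least 2-fold were counted as a rule of size, with no test.

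The upstream sequences of 4 ligands named in the results are shown first. Whether these sequences bear on the levels was not tested. Cxcl14 was at least 2-fold higher in SiO2-3TF-3C spleen and in liver, Ccl9 was higher in liver, and Cxcl1 and Cxcl2 are neighbours on chromosome 5 that differed in opposite directions. These 4 were chosen after their values were known. Each run holds the 250 bases before the RefSeq start site (GRCm38.p6 assembly), 5′ to 3′ on the strand of the gene, and capitals mark matches to the searched motifs.
Cxcl14, chr13:56296552-56296801, minus strand: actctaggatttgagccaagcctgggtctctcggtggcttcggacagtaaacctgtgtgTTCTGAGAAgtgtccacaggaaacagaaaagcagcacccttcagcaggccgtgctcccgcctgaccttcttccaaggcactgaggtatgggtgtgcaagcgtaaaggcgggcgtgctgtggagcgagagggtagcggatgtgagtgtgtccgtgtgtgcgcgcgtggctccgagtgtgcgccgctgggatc
Ccl9, chr11:83578637-83578886, minus strand: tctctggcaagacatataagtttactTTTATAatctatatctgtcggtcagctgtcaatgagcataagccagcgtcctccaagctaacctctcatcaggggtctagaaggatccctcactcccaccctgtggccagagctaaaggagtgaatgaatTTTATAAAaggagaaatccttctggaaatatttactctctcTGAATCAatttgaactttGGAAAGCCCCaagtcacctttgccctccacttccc
Cxcl1, chr5:90890995-90891244, plus strand: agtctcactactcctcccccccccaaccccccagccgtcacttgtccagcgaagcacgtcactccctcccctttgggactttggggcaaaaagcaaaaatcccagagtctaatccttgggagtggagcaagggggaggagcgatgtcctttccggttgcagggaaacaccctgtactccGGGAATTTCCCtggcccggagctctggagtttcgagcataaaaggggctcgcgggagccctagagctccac
Cxcl2, chr5:90903649-90903898, plus strand: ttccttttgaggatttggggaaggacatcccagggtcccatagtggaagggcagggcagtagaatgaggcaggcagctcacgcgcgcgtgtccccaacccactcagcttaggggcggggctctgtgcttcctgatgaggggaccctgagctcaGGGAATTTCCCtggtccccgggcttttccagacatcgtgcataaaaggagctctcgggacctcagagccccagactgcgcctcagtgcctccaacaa
The searched motifs, on both strands, were the kappaB motif of the NF-kappaB factors, TATAAA, TTCNNNGAA of the STAT factors, TGANTCA of the AP-1 factors and TTGCNNAA of the C/EBP factors. In Cxcl1 and Cxcl2 the capitals are 2 kappaB matches that overlap, from -71 to -62 and -70 to -61 in Cxcl1 and from -97 to -88 and -96 to -87 in Cxcl2, counted from the start site. Both genes carry the same letters there, GGGAATTTCCC. Ccl9 held 1 kappaB match (-35 to -26), 1 TGANTCA match (-53 to -47) and 3 TATAAA matches, of which those at -94 to -89 and -92 to -87 overlap. Cxcl14 held 1 TTCNNNGAA match (-191 to -183) and no kappaB match in this window. The RefSeq table held 45 such sequences for 41 of the 55 genes. The kappaB motif stood in 11 of the 45 (24.4%), against 7.25% of all 32851 sequences of this length. TATAAA stood in 13 (28.9%, against 12.4%), TTCNNNGAA in 4 (8.89%, against 7.02%), TGANTCA in 5 (11.1%, against 6.75%) and TTGCNNAA in 3 (6.67%, against 9.56%). A match is a run of letters and not a shown binding site.

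The 3 arrays were of like quality: spots well above background made up 79.9%, 81.3% and 77.2% of those of SiO2 spleen, SiO2-3TF-3C spleen and liver, and no spot was saturated (0). The tissue labels were read against defining markers. All 9 B cell markers and all 10 T and NK cell markers with a value on every array were well above background on all 3, liver included. Hepatocyte markers were well above background for 8 of 10 genes in SiO2 spleen and 10 of 10 in the other samples, with summed levels (75th percentile as 1) of 27.2 in SiO2 spleen, 300.4 in SiO2-3TF-3C spleen and 669 in liver. Of the 55 chemokine and receptor genes, 48 were well above background in SiO2 spleen, 50 in SiO2-3TF-3C spleen and 44 in liver, and 43 were so on all 3 arrays. Ccl1, Ccl20, Ccl26 and Cxcl3 were not well above background on any array.

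Between the spleens the family differed little. Of 50 measured, 2 reached a 2-fold higher level in SiO2-3TF-3C spleen, Cxcl14 and Ccl2, where 5.28% of all 17764 measured genes were, and 0 were at least 2-fold lower, where 1.38% of all genes were. That is 4% higher and 0% lower, near the background in both directions. The median log2 difference of the 50 genes was -0.16, against -0.15 for all genes. The ligands had a median of 0.05 and the receptors one of -0.36. Of 23 receptors 21 lay below 0, as did 11649 of all 17764 genes. The all-gene median depends on the scale: with the arrays scaled on housekeeping genes it was 0.02, 1122 genes were higher and 133 lower in place of 938 and 245, the receptor median was -0.19 and 15 receptors lay below 0.

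Liver differed more. Of 48 genes measured against SiO2 spleen, 5 stood 2-fold or more higher in liver (10.4%, against 15.1% of all genes) and 22 at least 2-fold lower (45.8%, against 16.7%). All 5 that were higher are ligands: Cxcl14, Cxcl1, Cxcl15, Ccl27a and Ccl9. Of the 22 that were lower, 15 are receptors and 7 are ligands. The median was -0.66, against -0.13 for all genes. With SiO2-3TF-3C spleen set against liver, 18 of 50 reached a 2-fold higher level in the spleen (36%, against 10.5% of all genes) and 4 lower (8%, against 15.4%), with a median of 0.51 against -0.00. The comparisons share arrays, so they are not separate evidence.

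**Figure D1:**
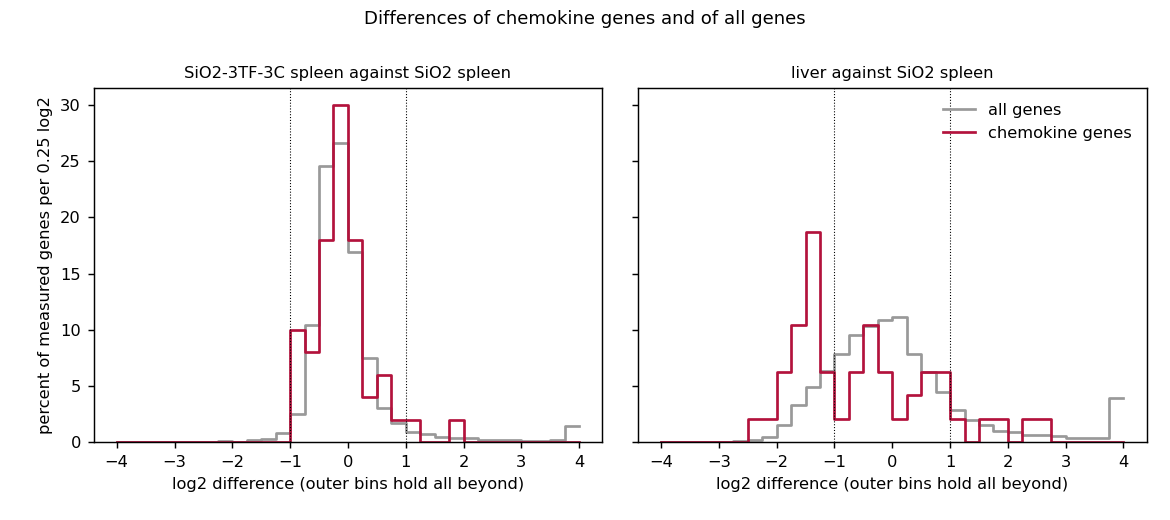
Percent of measured genes (y axis) by log2 difference from SiO2 spleen (x axis, in bins of 0.25) for the chemokine and receptor genes in red and all genes in grey, with SiO2-3TF-3C spleen on the left, liver on the right and dotted lines at 2-fold. On the left 48 of 50 chemokine and receptor genes lie between the lines. The bin just above the lower line holds 10% of them, against 2.53% of all genes. Over the alternatives the genes in that bin reached -0.59 (Ccr9), -0.32 (Ccr10), -0.19 (Ccr4), -0.14 (Cxcl2) and 0.08 (Ccr8). On the right 22 of 48 chemokine and receptor genes lie past the lower line.

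Among the ligands, Cxcl14, a chemokine made by epithelia, had the greatest difference between the spleens of those well above background in both. Its level was -3.90 in SiO2 spleen, -2.04 in SiO2-3TF-3C spleen and -1.25 in liver. It was thus low in SiO2 spleen and high in both other samples. The difference was 1.86 ± 0.22 (technical error) between the spleens, a 3.64-fold higher level with 3TF-3C, and 2.65 ± 0.22 (6.29-fold) between liver and SiO2 spleen. SiO2-3TF-3C spleen stayed below liver by 0.79. Over the alternative ways of processing the spleen difference ran from 1.01 to 2.04. Hepatocyte markers moved with it: all 10 were past 2-fold in SiO2-3TF-3C spleen, with a median log2 difference of 8.17 between the spleens and 10.49 between liver and SiO2 spleen. Their part in the Cxcl14 difference was not tested. In bulk tissue, fewer cells of a type and less RNA per cell cannot be told apart.

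The ligands that draw monocytes through Ccr2 were Ccl2, Ccl7 and Ccl12. Ccl2 had levels of -0.56, 0.49 and 0.35 in SiO2 spleen, SiO2-3TF-3C spleen and liver. The SiO2 spleen was the low sample and the other two lay close together. The array carries 10 spots of this probe. On SiO2 spleen they ran from -0.68 to -0.43, on SiO2-3TF-3C spleen from 0.36 to 0.59, and on liver from 0.21 to 0.46, so the spots of SiO2 spleen lay apart from those of the other arrays, while those of SiO2-3TF-3C spleen and liver overlapped. The spread between spots (SD 0.083, 0.073 and 0.098 over 10 spots) is technical. The difference between the spleens was 1.05 ± 0.20, 2.06-fold, and stood just past the 2-fold line: it ran from 0.94 to 1.22 over the alternatives and missed the line with normexp background correction. Ccl7 (-2.86, -2.21 and -2.22) and Ccl12 (-4.37, -3.75 and -4.95) were higher between the spleens by 0.65 and 0.62, both under 2-fold. Ccl12 was lower in liver than in SiO2 spleen by 0.58, but with normexp background correction it was higher there by 0.23. Ccr2, the receptor of all 3, had levels of 1.18, 0.88 and -0.51. It was lower by 0.30 in SiO2-3TF-3C spleen and 3.22-fold lower in liver, so it did not follow Ccl2. Monocyte and macrophage markers had a median difference of 0.01 between the spleens, with summed levels of 91.5, 92.0 and 73.1, and their part in these values was not tested.

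The ligands that draw neutrophils did not move as a group. Cxcl1 had levels of -3.26 in SiO2 spleen, -2.45 in SiO2-3TF-3C spleen and -0.79 in liver. It was 5.54-fold higher in liver than in SiO2 spleen (2.47 ± 0.21) and 1.76-fold higher in SiO2-3TF-3C spleen. Cxcl2, whose gene follows it in the same run of chemokine genes and which carries the same kappaB letters, had levels of -4.05 and -4.99 in the spleens and was not well above background in liver. It was 1.92-fold lower in SiO2-3TF-3C spleen and at least 2.87-fold lower in liver than in SiO2 spleen. Cxcl1 was therefore lowest where Cxcl2 was highest, although Cxcl2 is dim and its spleen difference ran from -0.95 to -0.14 over the alternatives. The Cxcl2 difference between liver and SiO2 spleen ran from -1.76 to -0.00 and was under 2-fold with normexp background correction. Cxcl5 (0.73, 0.98 and -0.72) was 2.72-fold lower in liver and differed by 0.25 between the spleens. Cxcl15, known as lungkine for its expression in lung, was well above background in liver alone, where it was at least 3.36-fold higher than in SiO2 spleen and at least 3.74-fold higher than in SiO2-3TF-3C spleen. With normexp background correction both Cxcl15 differences were under 2-fold.

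Cxcr2, the receptor for Cxcl1, Cxcl2 and Cxcl5, had levels of -2.34, -2.82 and -4.13, and was 3.44-fold lower in liver. It was lower by 0.48 in SiO2-3TF-3C spleen. Most neutrophil markers stood the other way between the spleens, with a median difference of 0.52. Of 9 markers 7 lay above 0 and 2 below, down to -0.43, and 1 (Ltf, lactoferrin, 1.47) was at least 2-fold higher. The markers had summed levels of 132, 151 and 72.2 in the 3 samples. In liver 7 of 8 of them were at least 2-fold lower than in SiO2 spleen. Their part in the values of Cxcr2 and its ligands was not tested. Cxcr1, its close relative, had levels of -1.42, -1.90 and -1.47 and differed by -0.05 between liver and SiO2 spleen.

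**Figure D2:**
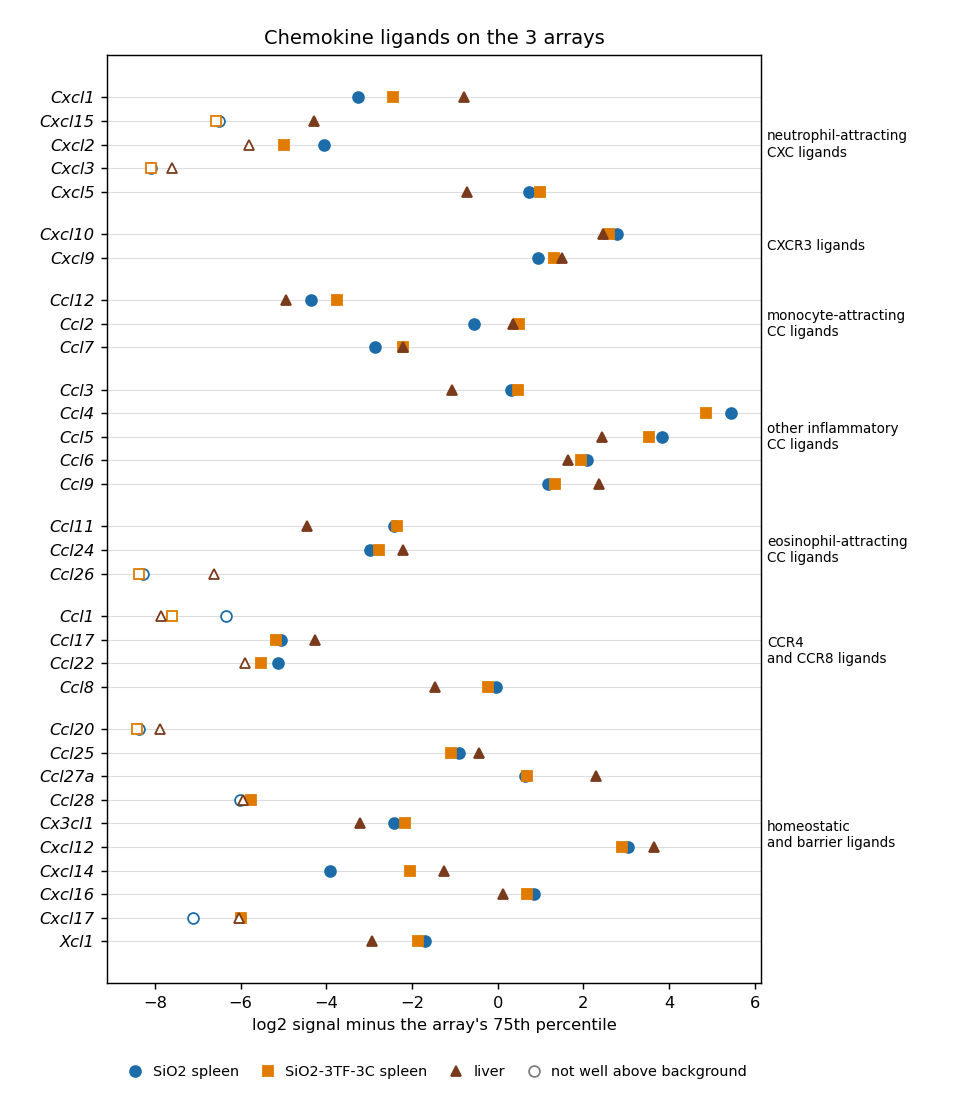
Level of each ligand on the 3 arrays, as log2 intensity minus the 75th percentile, grouped by role. Filled points are well above background, open points are not, and no error is drawn. Cxcl14 goes from -3.90 in SiO2 spleen to -2.04 in SiO2-3TF-3C spleen and -1.25 in liver, while Ccl5 goes from 3.85 to 3.53 and 2.44.

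The interferon-induced Cxcr3 ligands with a probe were Cxcl9 and Cxcl10. Cxcl9 had levels of 0.93, 1.31 and 1.50 and Cxcl10 of 2.79, 2.60 and 2.46, and neither differed by 2-fold in any comparison. Their receptor Cxcr3, carried by activated T cells and NK cells, had levels of 1.65, 1.58 and 0.26. It differed by -0.07 between the spleens and was 2.61-fold lower in liver.

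Other inflammatory CC ligands, which draw monocytes and T cells, split in liver. Ccl3 (0.30, 0.47 and -1.06) was 2.56-fold lower in liver than in SiO2 spleen, and Ccl5 (3.85, 3.53 and 2.44), also known as RANTES, was 2.65-fold lower. Ccl9 (1.18, 1.33 and 2.36) was 2.27-fold higher there, and Ccl6 (2.10, 1.95 and 1.64) lay in between at -0.46. Both Ccl6 and Ccl9 are Ccr1 ligands of the mouse, and they lie side by side on chromosome 11. Between the spleens all 5 genes of the group stayed within 2-fold, with a median of -0.15. Ccl4 had levels of 5.44 and 4.87 in the spleens. Its liver spot was marked non-uniform by the scanner software and was left out. With that spot kept, Ccl4 was 6.27 in liver and would add 1 to the 4 genes at least 2-fold lower in SiO2-3TF-3C spleen than in liver.

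Ccr1 had levels of -1.94, -2.30 and -4.35, and was 5.33-fold lower in liver (-2.41 ± 0.27) than in SiO2 spleen. With normexp background correction this was -0.78, under 2-fold. Ccr1l1, an orphan relative of Ccr1, was dim in the spleens (-5.18 and -5.22) and not well above background in liver.

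Eotaxins act on eosinophils through Ccr3. Ccl11 had levels of -2.43, -2.34 and -4.44, 4.04-fold lower in liver than in SiO2 spleen, whereas Ccl24 (-2.98, -2.78 and -2.20) was 0.78 higher there. Ccr3 had levels of 1.27, 1.27 and -0.07. It was the same in both spleens (-0.00 ± 0.20) and 2.54-fold lower in liver. Of 6 eosinophil markers, 2 were at least 2-fold higher in SiO2-3TF-3C spleen, the granule genes Epx (2.06) and Prg2 (1.51), and the median was 0.49. Il5ra stood the other way at -0.77, and Ear1 was at 0.53. The 6 markers had summed levels of 4.26, 6.07 and 1.66, and their part in the Ccr3 and eotaxin values was not tested.

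Ligands of Ccr4 and Ccr8, receptors of helper and regulatory T cells, were partly near background. Ccl17 had levels of -5.06, -5.17 and -4.27. Ccl22 had levels of -5.12 and -5.53 in the spleens and was not well above background in liver. Ccl8, a Ccr8 ligand in the mouse, had levels of -0.04, -0.23 and -1.46, and was 2.68-fold lower in liver than in SiO2 spleen. Ccr4 (-4.22 and -5.08 in the spleens) was lower by 0.86 in SiO2-3TF-3C spleen and at least 2.55-fold lower in liver, where it was not well above background. Ccr8 had levels of -1.28, -2.17 and -1.33, so by its brightest probe the SiO2-3TF-3C spleen was the low sample, by 0.89 from SiO2 spleen. A second Ccr8 probe was well above background in liver alone, at -5.18, and with both probes averaged the difference between the spleens was 0.08, so the direction of Ccr8 is not settled.

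Homeostatic ligands place resting cells. Cxcl12, which holds blood stem cells and B cells in their niches through Cxcr4, had levels of 3.05, 2.89 and 3.65. Its receptors stood the other way in liver: Cxcr4 (-0.15, -0.36 and -1.56) was 2.65-fold lower and Ackr3 (1.58, 1.28 and -0.21), which removes Cxcl12, 3.46-fold lower, while Cxcl12 was higher by 0.60. A second Cxcl12 probe, designed to another transcript, was lower in liver by 0.20, so the liver direction of Cxcl12 is not settled. Ccl27a, a ligand of Ccr10 on skin-homing T cells, had levels of 0.65, 0.68 and 2.30 and was 3.15-fold higher in liver. Of its 3 probes 2 showed a difference of 1.65 and 1.75 and the third one of 0.23, and signal from the near-identical Ccl27b cannot be separated here. Ccr10 was lower in both, with levels of -3.35, -4.17 and -4.77.

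Among the remaining measured homeostatic and barrier ligands, only Xcl1 differed by at least 2-fold between liver and SiO2 spleen. Cxcl16, the membrane-bound ligand of Cxcr6, had levels of 0.84, 0.67 and 0.13, and Cxcr6 itself of 0.51, 0.56 and -0.12, within 2-fold in every comparison. Ccl25, the thymus and gut ligand of Ccr9, had levels of -0.89, -1.09 and -0.43, and Ccr9 of -0.46, -1.22 and -0.87. Cx3cl1 (-2.41, -2.16 and -3.21) was lower in liver, by 0.80 from SiO2 spleen and 2.06-fold from SiO2-3TF-3C spleen. Xcl1 (-1.69, -1.86 and -2.92), a product of T and NK cells, was 2.35-fold lower in liver, and its receptor Xcr1 on cross-presenting dendritic cells (-1.84, -2.27 and -2.91) 2.10-fold lower. Cxcl17 and Ccl28 were well above background in SiO2-3TF-3C spleen alone, at -5.99 and -5.76, next to the lowest level that counts as well above background there (-6.20).

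The receptors that place lymphocytes in the spleen were well above background on all 3 arrays. Cxcr5, which leads B cells into follicles, had levels of 3.50, 2.86 and 1.81. Ccr7, which leads T cells and dendritic cells into T-cell zones, had levels of 3.78, 3.08 and 2.27. Ccr6, found on B cells and on helper T cells that make interleukin 17, had levels of 3.60, 3.14 and 2.08. In each of these 3 genes SiO2-3TF-3C spleen lay between SiO2 spleen and liver, lower than SiO2 spleen by 0.64 for Cxcr5, 0.71 for Ccr7 and 0.46 for Ccr6. In liver they were 3.23-fold, 2.84-fold and 2.88-fold lower. Their partner ligands that the rule left out were also lower: Cxcl13, the ligand of Cxcr5, had levels of 3.21, 2.78 and 1.78, and Ccl19, a ligand of Ccr7, of 1.39, 1.11 and -0.11.

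Lymphocyte markers moved with these receptors. B cell markers had a median difference of -0.57 between the spleens and -1.20 between liver and SiO2 spleen, with summed levels of 137.6, 94.7 and 56.1 over 9 genes. T and NK cell markers had medians of -0.48 and -1.46, with summed levels of 23.8, 15.9 and 9.57 over 10 genes. No marker of either list was at least 2-fold lower between the spleens (0 of 10 in both), while 6 of 9 and 8 of 10 were in liver. Dendritic cell markers had summed levels of 56.7, 45.3 and 40.9. Their part in the receptor values was not tested.

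**Figure D3:**
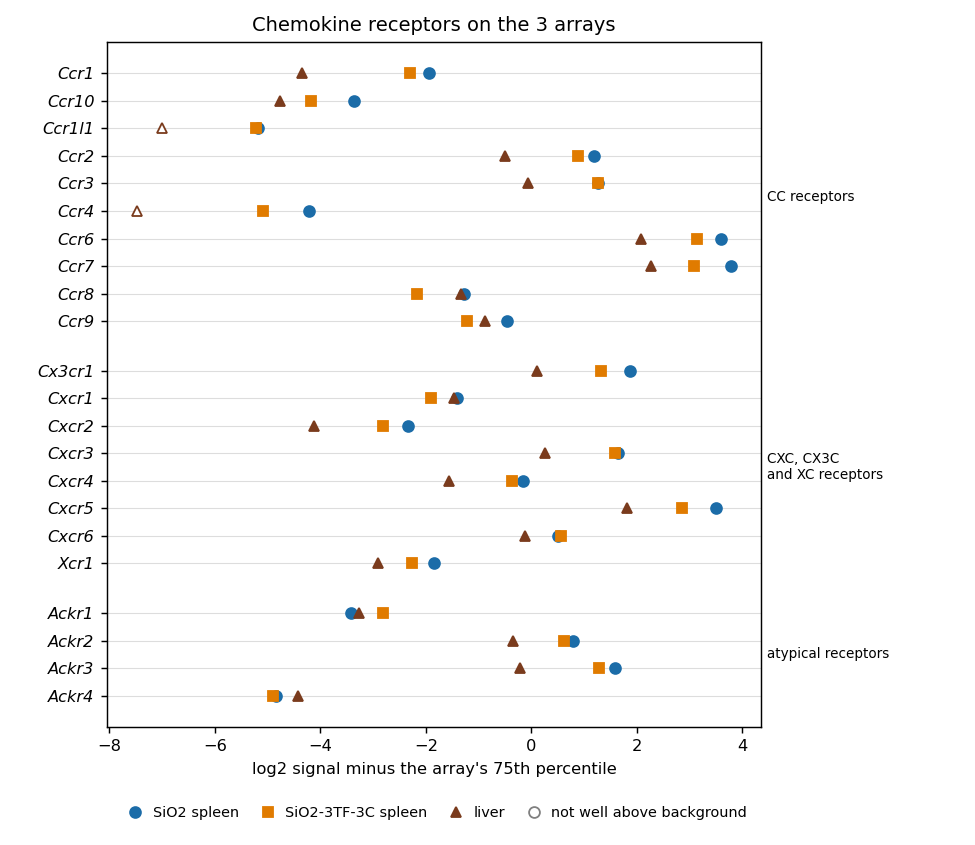
Level of the named receptors on the 3 arrays, as log2 intensity minus the 75th percentile. Open points are not well above background, and no error is drawn. Ccr7 (3.78, 3.08 and 2.27) and Cxcr5 (3.50, 2.86 and 1.81) step down from SiO2 spleen to SiO2-3TF-3C spleen and liver. Ackr4 stays between -4.89 and -4.43, but its signal is low on every array (intensities 19.9, 17.3 and 18.1).

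Taken as classes, 7 of 11 CC receptors were at least 2-fold lower in liver than in SiO2 spleen: Ccr1, Ccr2, Ccr3, Ccr4, Ccr6, Ccr7 and Ccr10. Of the 8 CXC, CX3C and XC receptors 6 were, namely Cxcr2, Cxcr3, Cxcr4, Cxcr5, Cx3cr1 and Xcr1. The share over all genes was 16.7%. With normexp background correction 10 receptors of all 23 stayed at least 2-fold lower in place of 15, and the receptor median was -0.68 in place of -1.35; among the CC receptors Ccr1, Ccr4 and Ccr10 were lost. Cx3cr1, which marks patrolling monocytes and tissue macrophages, had levels of 1.87, 1.32 and 0.10 and was 3.41-fold lower. No receptor was at least 2-fold higher in liver (0 of 23, against 15.1% of all genes) by its brightest probe. With the probes of a gene averaged, 1 was, Ccr8 at 1.53. Against liver, 10 of 23 receptors were at least 2-fold higher in SiO2-3TF-3C spleen and 0 were lower, with a median of 0.80. Of all genes 10.5% were higher and 15.4% lower there.

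Atypical receptors were split. Ackr3 and Ackr2 (0.80, 0.63 and -0.34), a scavenger of inflammatory CC chemokines, were lower in liver by 3.46-fold and 2.21-fold. The Ackr2 difference was -0.16 with its probes averaged, since its second probe, not well above background in SiO2 spleen or liver, does not show it. Ackr4 (-4.84, -4.89 and -4.43), which clears Ccl19, Ccl21 and Ccl25, stayed within 2-fold. Ackr1, the Duffy receptor of red cells and venules, had levels of -3.42, -2.81 and -3.27. It had the greatest positive receptor difference between the spleens, 0.61 ± 0.21. Erythroid markers were higher there too: 6 of 8 reached a 2-fold difference, the median difference was 2.18, and they had summed levels of 17.5, 40.5 and 7.88 in the 3 samples. Their part in the Ackr1 value was not tested. Between liver and SiO2 spleen Ackr1 differed by 0.15 ± 0.22, within its technical error.

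Genes of a genomic cluster differed from each other in the size of their differences and in part also in sign. Some differences between the spleens, such as those of Ccl11 and Cxcr6, lay within their technical error. On chromosome 11, Ccl2 (1.05 between the spleens), Ccl7 (0.65), Ccl11 (0.09), Ccl12 (0.62) and Ccl8 (-0.20) follow each other. In liver the same genes ran from 0.91 for Ccl2 to -2.02 for Ccl11. The run Ccl5, Ccl9, Ccl6, Ccl3 and Ccl4 ran from -0.57 for Ccl4 to 0.17 for Ccl3 between the spleens. In the receptor run of chromosome 9, which holds Ccr9, Cxcr6, Xcr1, Ccr1, Ccr1l1, Ccr3 and Ccr2, the spleen differences lay between -0.77 for Ccr9 and 0.05 for Cxcr6. In liver all of these lay below 0 (Ccr1l1 as a bound), with Ccr9 at -0.41 and Ccr1 at -2.41.

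**Figure D4:**
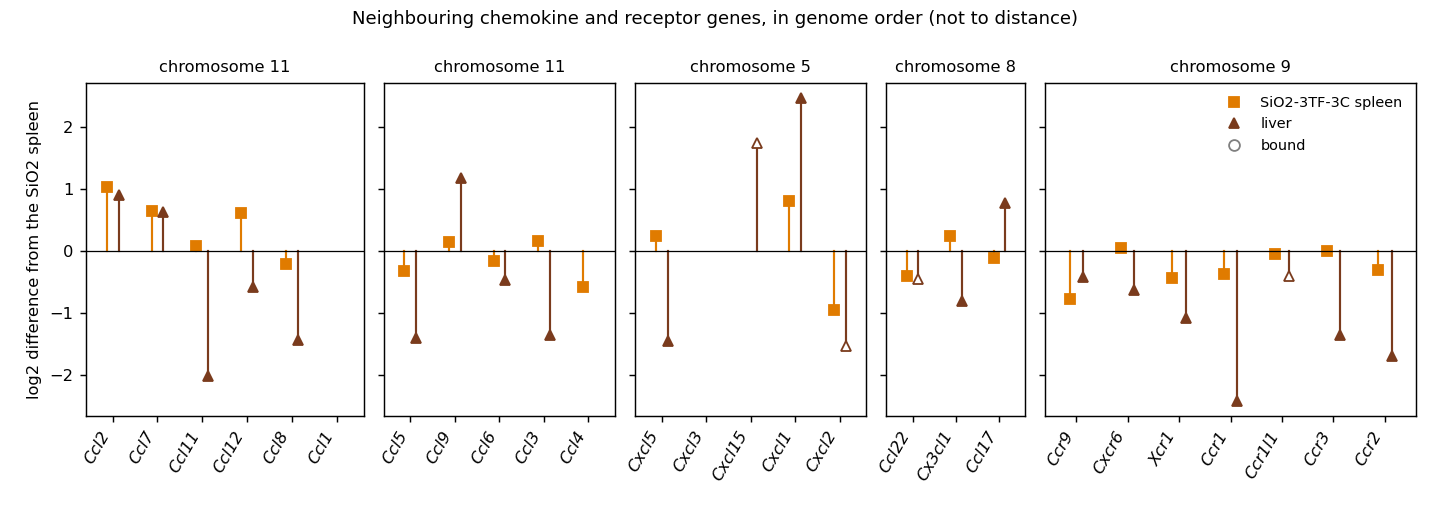
Log2 difference from SiO2 spleen for chemokine and receptor genes in the order of their genomic runs, for SiO2-3TF-3C spleen (squares) and liver (triangles, open for bounds); starts of neighbours in a run are at most 150000 bases apart. Neighbours differ from each other, as with Cxcl1 at 2.47 in liver beside Cxcl2, which was at least 2.87-fold lower. With normexp background correction the Cxcl2 difference was under 2-fold.

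The genes that act after the receptors were read as a list of G proteins, kinases, arrestins, exchange factors and motility genes. Between the spleens 0 of 42 were at least 2-fold higher or lower, where 5.28% of all genes were higher and 1.38% lower. In a list of this size 0 is near those shares. The median was -0.39, against -0.15 for all genes. The greatest differences were those of Grk2 (-0.78), the kinase that turns receptors off, Gnb2 (-0.64), a G-protein beta subunit, Rassf5 (-0.61), a regulator of integrin adhesion, and Dock2 (-0.60), a Rac activator of lymphocyte migration. In liver 24 of 42 were at least 2-fold lower than in SiO2 spleen and 0 higher, with a median of -1.07, where 16.7% of all genes were lower, 15.1% higher and the median was -0.13. Of 16 measured leukocyte adhesion genes 0 passed 2-fold between the spleens, again near the all-gene shares, with a median of -0.14. In liver 10 were lower and 1 higher (F11r, 1.57), with a median of -1.19 against the same all-gene values.

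A further list held 9 genes linked to chemokines, not all of them chemokines or their receptors. Between the spleens 1 of the 9 was at least 2-fold higher, where 5.28% of all genes were. This was Rarres2, which encodes chemerin, an attractant that liver secretes. Its levels were 2.50, 3.51 and 5.57, a difference of 1.01 ± 0.20 between the spleens and 3.07 between liver and SiO2 spleen. The difference between the spleens stood barely past the 2-fold line, by less than its technical error. Like Cxcl14 it was lowest in SiO2 spleen and highest in liver.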

How the data were processed

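RNA from the 2 pooled spleen samples and from liver was hybridised to 1-colour (Cy3) Agilent arrays. Per the labels' protocols it was prepared with a blood RNA kit and depleted of globin messages; how this was adapted to solid tissue is left unstated by the labels. The deposited scanner files hold linear background-subtracted intensity, extracted by the authors with Feature Extraction 11.0.1.1 per the file headers (the submitters' processing notes give 9.1). The authors' deposited series table holds log2 values (normalization not given in the sources used here).

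Control spots and spots with outlier flags were left out (182, 283 and 469 of 43020), spots of a probe were averaged, and log2 intensity was scaled to the 75th percentile of probes present on all arrays (intensity 569, 515 and 389.8 for SiO2 spleen, SiO2-3TF-3C spleen and liver). Probes were named through RefSeq accessions (27232 of 39426, 69.1%), and a gene is its brightest probe. A gene dim on 1 side has a bound, written "at least", against the lowest level well above background (-6.04, -6.20 and -5.57); where both sides are dim no fold is given. Technical error combines the software's error of both spots. With 1 array a group there is no test, and the number of arrays limits precision.

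The genes and lists were chosen with earlier results of these data known. The text names the chemokine and receptor genes by role (1 that is counted is not reported here by name), and of each other list at most the 4 genes with the greatest difference between the spleens. F11r was named after its value was seen. The calculation was tested on simulated data. Python 3.11.15 with pandas 2.3.3, and limma 3.58.1 in R 4.3.3 for normexp and quantile, were used. Results were recomputed with 8 alternatives, and with 1 more chosen after seeing the data (flagged spots kept). Normexp used median spot signals, since the files have no mean signal.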

Additional observations from a re-analysis of the deposited data

How the results depend on the processing

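No paired analysis was possible because each group has 1 array and no result comes from a test. No difference of at least 2-fold turned to the opposite sign under any of the 9 alternatives (0 in each comparison). Of the values of single genes, 1198 moved by less than their technical error and 69 by more. This count overstates stability, because some alternatives could not move many of the values. Averaging probes can change only the 8 of 55 genes with several probes. The changes of the filter on dim genes leave genes well above background on both sides as they were.

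With normexp background correction, which draws dim probes together, the spleen comparison held 1 gene at least 2-fold higher (Ccl2 was lost) in place of 2, and 605 and 43 of all genes higher and lower. Liver against SiO2 spleen then held 14 lower genes in place of 22 (lost were Ccl11, Ccr1, Ccr10, Ccr4, Cxcl2, Cxcr2, Xcl1 and Xcr1), a median of -0.27 and 1630 of all genes lower. It held 4 higher genes in place of 5 (Cxcl15 was lost). SiO2-3TF-3C spleen against liver held 10 higher and 2 lower, a median of 0.15 and 859 of all genes higher.

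The values of the authors' deposited table allowed a comparison of 35 of the 55 genes between the spleens. It gave 1 higher gene of 35 there (Cxcl14 has no value in it), and 143 of 11777 genes in all were lower. Against SiO2 spleen, liver had 1 of 34 higher and 14 lower, with 1631 of 11759 genes in all higher. In SiO2-3TF-3C spleen 1 of 35 was lower than in liver, with 1574 of 11746 genes in all lower. Of the called genes with a value in it, 1 of 1, 15 of 15 and 12 of 12 were also called there. Housekeeping scaling left 133 of 17764 genes lower between the spleens, and genes well above background on all 3 arrays 160 of 16036. No filter gave 555 of 20623, with 1 chemokine lower, Ccl1, which is dim on every array. Housekeeping scaling also turned the split of all genes between SiO2-3TF-3C spleen and liver from 1845 higher and 2718 lower to 2414 and 2357.

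The receptor median stayed below 0 in both comparisons with SiO2 spleen under all 9 alternatives, and the median of all 50 chemokine and receptor genes between the spleens ran from -0.17 to 0.01. Of 23 receptors 15, and of 27 ligands 21, kept their sign between the spleens. Ccl9 lost its 2-fold difference between SiO2-3TF-3C spleen and liver under each other scaling. Signal near background limits Cxcl2, Cxcl15, Cxcl17, Ccl22, Ccl28, Ccr4 and Ccr1l1.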

Other observations

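Some genes had a second probe well above background on every array. That of Cx3cr1 differed by -0.25 between the spleens and -1.32 in liver, against -0.55 and -1.77 for the brightest probe. That of Cxcl9 differed by 0.45 and 0.34, against 0.37 and 0.56.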
